A study of Homo sapiens with 12 samples.

Results

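Knockdown of 3 genes of citrate handling was compared as 1 response in MiaPaCa-2 cells, a long-established line from a human carcinoma of the pancreas. The 12 libraries were 3 each of siControl, siSLC25A1, siACLY and siACO1, named for the transcript that the transfected small interfering RNA (siRNA) targets, and all were of polyadenylated RNA from cells with no other treatment in the labels. The 9 knockdown libraries were set against the 3 control libraries as the average of the 3 knockdown groups minus siControl. A common gene was one called in that contrast by edgeR's quasi-likelihood test (Benjamini-Hochberg adjusted p under 0.05) whose level, in CPM (its counts relative to the scaled total of the library), lay in all 9 knockdown libraries above, or in all 9 below, all 3 controls. By this definition the knockdown libraries of a common gene never overlap the controls, so statements of that separation below are no further evidence. There were 1192 such genes of 16197 tested (7.36%), 520 higher (3.21%) and 672 lower (4.15%). The edgeR contrast alone called 27.3% of all genes tested, and position on 1 side of the controls, without a test, held for 7.63% (3.37% above and 4.26% below).

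SLC25A1 is the carrier that brings citrate out of mitochondria. ACLY, ATP citrate lyase, splits cytosolic citrate into oxaloacetate and acetyl-CoA, the building block of fatty acids and cholesterol and the donor for protein acetylation. ACO1, cytosolic aconitase, converts citrate into isocitrate and acts as iron regulatory protein 1 when it lacks its iron-sulfur cluster. The 3 proteins supply or use the same cytosolic pool of citrate. Immediate early genes, which form the group with the highest share of common genes below, are transcribed within minutes of growth factor or stress signals, largely through the serum response factor and its partners, which bind a DNA element called the CArG box.

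All 3 comparisons share the same 3 control libraries and the same control siRNA, so a response common to the knockdowns cannot be told apart from a difference of the control siRNA from the others. The labels give neither the number of siRNAs per target nor the time after transfection, and do not say that replicates were separate cultures, so p-values measure the spread between these samples, which may be technical. Library totals ran from 24159424 to 43792811 counts. Each target was lowest in the group of its own siRNA: SLC25A1 was at 134 CPM in siControl and 11.7 in siSLC25A1, ACLY at 499 and 36.1 in siACLY, and ACO1 at 45.0 and 1.68 in siACO1. None of the 3 was a common gene. The cell line's keratins KRT8 (1263 to 2436 CPM) and KRT18 (750 to 1345 CPM) were present in all libraries, the epithelial marker EPCAM was at 0.0776 CPM or less, and CDKN2A, CDKN2B and MTAP, which MiaPaCa-2 has lost, had no count. Of markers of other cells, PTPRC, CD3E, LUM, PRSS1, CPA1, CELA3A, INS, GCG and CHGA were at 0, CD68, PECAM1, VWF, CDH5, DCN, COL3A1 and PDGFRB were at 0.272 CPM or less, and LYZ ran from 0.642 to 2.24 CPM, with a mean of 0.836 in siControl and 1.94 in the knockdowns, and was itself a common gene. The library siACO1 replicate 3 stood apart from its 2 replicates (-15.7 against 8.10 and 7.38 on principal component 4). Its deviations from the mean of the 3 controls had a rank correlation with exon length of -0.234, against 0.077 and 0.093 in those replicates. The correlation was over 9778 genes that are no replicates of each other. Each control library was instead set against the mean of the other 2, so the 3 control values depend on each other. By that measure siControl replicate 1 had -0.185, against 0.085 and 0.095 in the other controls.

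Promoter sequences of 2 of the common genes that rose most are shown because they differ in the element named above. They are the 250 bases before the RefSeq start of transcription on GRCh38.p14, plus strand, chr5:138465229-138465478 for EGR1 and chr19:45467746-45467995 for FOSB, and capitals mark CArG boxes.
EGR1: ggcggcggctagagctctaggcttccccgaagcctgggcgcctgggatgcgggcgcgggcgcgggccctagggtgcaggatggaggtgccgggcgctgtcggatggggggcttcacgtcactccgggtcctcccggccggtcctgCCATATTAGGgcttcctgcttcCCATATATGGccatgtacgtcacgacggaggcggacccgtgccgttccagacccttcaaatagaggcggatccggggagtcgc
FOSB: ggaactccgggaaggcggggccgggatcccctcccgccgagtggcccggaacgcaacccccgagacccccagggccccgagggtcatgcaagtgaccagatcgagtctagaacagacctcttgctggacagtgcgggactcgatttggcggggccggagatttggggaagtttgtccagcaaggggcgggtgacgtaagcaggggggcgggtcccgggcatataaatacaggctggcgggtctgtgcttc
The EGR1 window held 2 CArG boxes, and the letters of the box were not in the FOSB window. Over windows that also took in the 50 bases after the start, searched on both strands, a CArG box occurred in 1 of the 8 common immediate early genes with a promoter in the table. It was found in 1.23% of the promoters of common genes that were higher, 0.575% of those that were lower, 0.955% of those of all tested genes and 1.29% of all 27305 promoters. The AP-1 motif TGACTCA, at which FOS and JUN proteins bind, was found in 3.94%, 1.53%, 3.02% and 4.92% of the same sets, and the CRE motif TGACGTCA in 3.20%, 4.02%, 3.25% and 1.98%. The E-box CACGTG, read by MondoA and MYC among others, was found in 7.64%, 11.7%, 9.88% and 7.43%. The CArG box was added to the motifs searched after the data were seen. All these shares describe only the windows, so an element farther upstream was not counted, and they were not tested.

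Most of the common changes were small. The median average log2 fold change of the 520 higher genes was 0.32 and that of the 672 lower genes -0.29, against 0.00 over all tested genes. A change of at least 1 on the log2 scale was reached by 48 higher and 16 lower genes, and an absolute change under 0.25 was seen for 175 higher and 263 lower genes. In the same order of knockdowns, siSLC25A1, siACLY and siACO1, the median was 0.27, 0.34 and 0.33 for the higher genes and -0.21, -0.33 and -0.30 for the lower genes. Each knockdown was also compared with siControl on its own, where 19.6%, 36.7% and 37.1% of all tested genes were called. In that order 10.3%, 18.4% and 17.8% of all genes were called higher and 9.27%, 18.3% and 19.3% lower. Of the higher common genes 283 were called in all 3 of these comparisons, 179 in 2, 57 in 1 and 1 in none, and of the lower common genes 329, 246, 90 and 7. Over all tested genes the numbers were 1113, 3336, 5114 and 6634, and 654 of the 1113 changed in the same direction in all 3. The rule uses the same 3 controls and so selects for such calls. The rule left out 3226 genes that the average contrast called but whose libraries overlapped the controls. At its edge, PRTFDC1, an enzyme-like relative of the purine salvage enzyme HPRT1, was just inside with 9.19 to 10.8 CPM in siControl and 10.8 to 13.9 in the knockdowns, and TUBGCP4, a subunit of the gamma-tubulin complex, was just outside with 40.4 to 41.1 against 31.6 to 40.4 CPM.

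**Figure D1:**
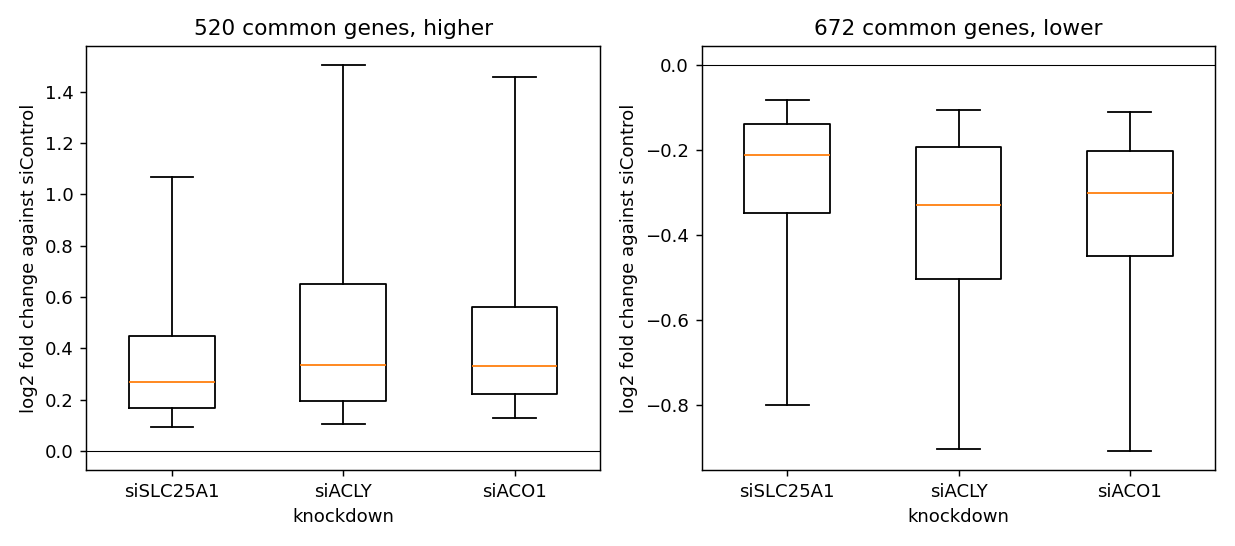
Box plots of the log2 fold change of each knockdown against siControl for the 520 common genes that were higher (left) and the 672 that were lower (right). The line is the median, the box the quartiles and the whiskers the 5th and 95th percentiles; the medians of siSLC25A1, 0.27 and -0.21, lie nearest to 0.

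Sharing a direction did not mean an equal size. Equality of the 3 knockdown groups, a test that does not involve the controls, was rejected for 720 of the 1192 common genes (60.4%), close to the 57.5% of all tested genes for which it was rejected. With the 9 knockdown libraries taken as 1 group, so that differences between knockdowns count as error, 136 higher and 144 lower genes were common. FOS and TSC22D3, below, were not called in that fit (adjusted p 0.095 and 0.152). Many other genes named below also lost their call in it. Among them, by adjusted p, were PHGDH (0.434), BIRC3 (0.219), ACSL4 (0.170), FTL (0.142), WIPI1 (0.095), CDC42 (0.087) and ISG20 (0.078). The knockdown with the largest absolute change was siACO1 for 497 common genes, siACLY for 490 and siSLC25A1 for 205. The genes with the narrowest range of the 3 changes were CAPN10, a calpain protease, SSH2, a phosphatase that activates cofilin, and CLCN3, an endosomal chloride-proton exchanger, among the higher genes. CLCN3 changed by 0.31 in siSLC25A1, 0.33 in siACLY and 0.32 in siACO1 (adjusted p for equality 0.91). Among the lower genes they were NDUFA10, a subunit of respiratory complex I, ACSF3, a mitochondrial malonyl-CoA synthetase, and UBE4B, a ubiquitin ligase, which changed by -0.19, -0.20 and -0.19 in the same order (adjusted p for equality 0.97).

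Of the 33 gene lists, the one with the highest share of common genes was that of immediate early genes and feedback inhibitors of the ERK kinases. Of its 32 tested members 22 were called higher and 0 lower (edgeR, adjusted p under 0.05), against 12.3% higher and 15% lower of all tested genes, and 11 were common genes, all higher, against 3.21% of all. These were the transcription factors EGR1, EGR3, FOS, FOSB, JUN, KLF6, ETV4 and IER2, the EGFR ligand HBEGF, the ERK phosphatase DUSP5 and the signalling inhibitor SPRY2. The list's median average log2 fold change was 0.22, and 10 members, MYC, JUND and KLF10 among them, were not called. At an unadjusted p under 0.05, and likewise by DESeq2, 0 members were lower.

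FOSB (ENSG00000125740, chromosome 19, 45467995 to 45475179, plus strand), a partner of JUN proteins in the transcription factor AP-1, was at 1.03, 1.33 and 0.929 CPM in siControl, 5.68, 5.47 and 3.69 in siSLC25A1, 12.6, 10.2 and 9.91 in siACLY and 24, 27.7 and 18.8 in siACO1. The 9 knockdown libraries lay above the controls, as the rule requires, and beyond the rule the 3 knockdown groups did not overlap each other. The average log2 fold change was 3.29 (SE 0.19, adjusted p 1.14e-09), with 2.16 in siSLC25A1, 3.30 in siACLY and 4.40 in siACO1. FOS (ENSG00000170345, chromosome 14, 75278774 to 75282230, plus strand), the founding member of the same family, was at 9.99, 10.8 and 6.15 CPM in siControl, 16.3, 13.4 and 14.7 in siSLC25A1, 26.4, 24 and 20.4 in siACLY and 55.8, 60.4 and 56.3 in siACO1. Again the groups were separate and in the same order, siSLC25A1 nearest to the controls and siACO1 farthest, and the average log2 fold change was 1.58 (SE 0.14, adjusted p 9.76e-06).

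EGR1 (ENSG00000120738, chromosome 5, 138465490 to 138469315, plus strand), a zinc finger factor induced by ERK signals, was at 53.9, 58.9 and 44.2 CPM in siControl, 103, 116 and 102 in siSLC25A1, 167, 180.3 and 164 in siACLY and 215, 224 and 203 in siACO1. It rose by 1.58 (SE 0.08, adjusted p 7.81e-09) on average on the log2 scale, with groups in the same order as FOS and FOSB and no overlap between them. EGR3, a relative of EGR1, was at 2.82, 3.16 and 3.32 CPM in siControl, 7.74, 8.85 and 6.43 in siSLC25A1, 9.26, 9.78 and 8.6 in siACLY and 11, 10.2 and 11.4 in siACO1. Its average log2 fold change was 1.57 (SE 0.11, adjusted p 6.25e-12), and here the 3 knockdown groups lay close together, from 1.31 to 1.81 (adjusted p for equality 0.00149). HBEGF and DUSP5, named after their values were seen, had another order: the log2 fold changes of HBEGF were 1.57 in siSLC25A1, 1.86 in siACLY and 0.49 in siACO1, and DUSP5 likewise rose least in siACO1 (0.27, against 1.15 in siACLY and more in siSLC25A1).

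**Figure D2:**
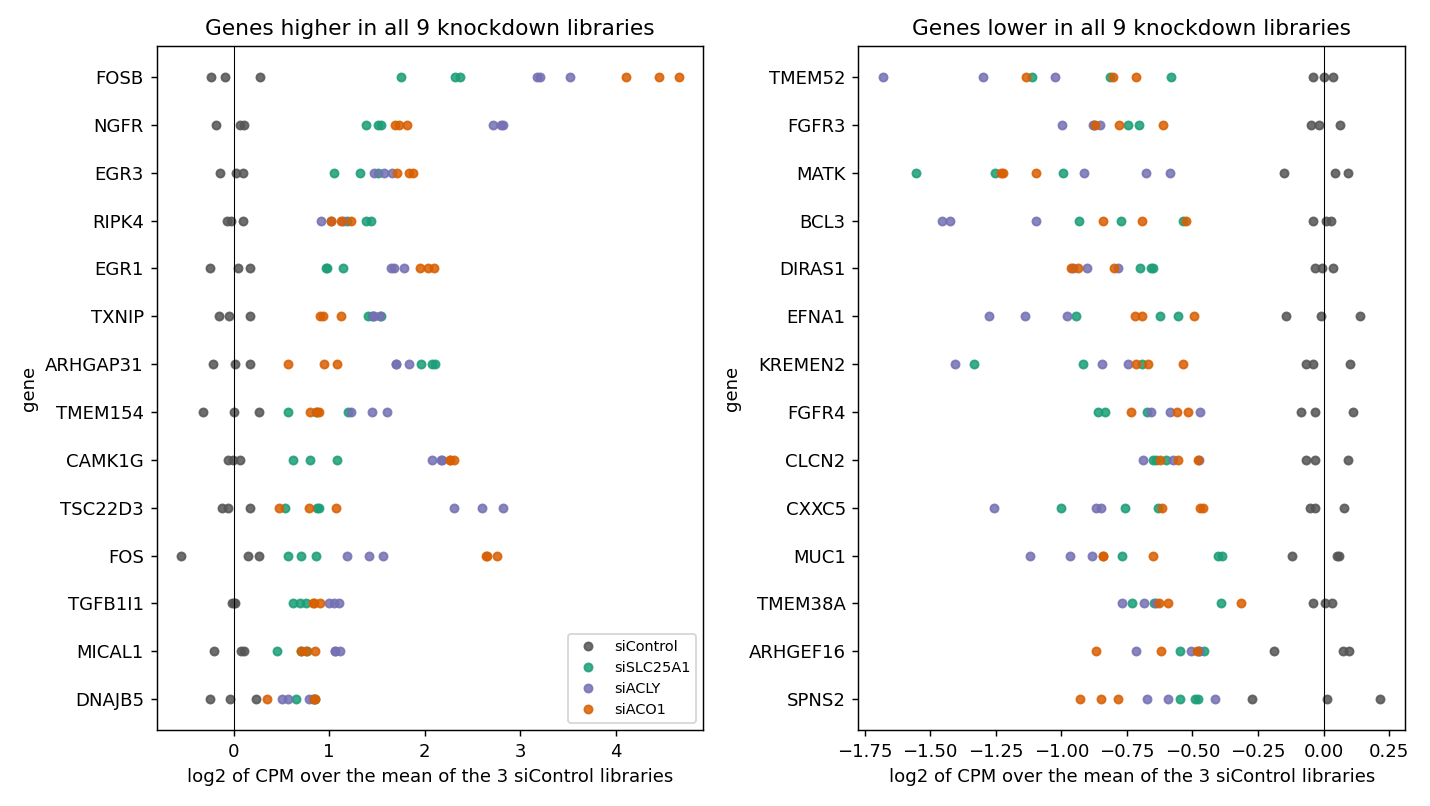
Level of the 14 higher (left) and 14 lower (right) common genes with the largest weakest change, as the log2 of CPM in each library over the mean of the 3 siControl libraries; each point is 1 library, coloured by group. Every knockdown point lies on 1 side of the 3 grey control points of its gene, as the rule requires, while the spread between knockdowns is wide for FOSB, FOS and TSC22D3 and narrow for RIPK4 and CLCN2.

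Beside the immediate early genes, the higher genes with the largest changes in all 3 knockdowns were of several kinds. NGFR (ENSG00000064300, chromosome 17, 49495293 to 49515017, plus strand), the p75 neurotrophin receptor, was at 3.88, 4.75 and 4.61 CPM in siControl, 12.9, 12.6 and 11.5 in siSLC25A1, 28.9, 31.1 and 30.6 in siACLY and 14.7, 14.2 and 15.5 in siACO1. It rose by 2.00 (SE 0.08, adjusted p 2.72e-17), most in siACLY, and the siSLC25A1 and siACO1 libraries lay between the controls and siACLY; its count is uncertain, as 27.1% of its exon bases are shared with an antisense gene. RIPK4 (ENSG00000183421, chromosome 21, 41739369 to 41767106, minus strand), a kinase of epidermal differentiation, was at 8.43, 7.71 and 7.51 CPM in siControl, 21.3, 20.5 and 17.9 in siSLC25A1, 17.4, 16 and 14.8 in siACLY and 17.1, 18.4 and 16 in siACO1. Its average change was 1.16 (SE 0.08, adjusted p 3.39e-12), and siSLC25A1 was the highest group. CAMK1G, a calmodulin-dependent kinase, was at 3.18, 3.02 and 2.93 CPM in siControl, 5.3, 4.67 and 6.43 in siSLC25A1, 13.8, 12.8 and 13.7 in siACLY and 14.6, 15 and 14.7 in siACO1. The siSLC25A1 libraries lay between the controls and the other knockdowns, and the average change was 1.75 (SE 0.10, adjusted p 7.29e-14).

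TXNIP and TSC22D3 were the common genes in the list of MondoA targets and FOXO factors, 2 of 14 tested, both higher, with 2 members called higher and 1 lower and a list median of 0.01. TXNIP (ENSG00000265972, chromosome 1, 145992435 to 145996600, minus strand), which restrains glucose uptake and binds thioredoxin, was at 14.4, 12.4 and 11.5 CPM in siControl, 34.8, 33.9 and 37 in siSLC25A1, 35, 35.3 and 36.9 in siACLY and 23.9, 24.4 and 27.7 in siACO1. All 9 knockdown libraries were at least 23.9 CPM and all 3 controls at most 14.4, and the average log2 fold change was 1.31 (SE 0.07, adjusted p 4.19e-15). TSC22D3, a glucocorticoid-induced leucine zipper protein, was at 1.56, 1.83 and 1.5 CPM in siControl, 2.37, 2.98 and 3.03 in siSLC25A1, 8.09, 9.85 and 11.5 in siACLY and 2.82, 2.28 and 3.43 in siACO1. It rose by 1.37 (SE 0.16, adjusted p 8.3e-08), far more in siACLY (2.57) than in siSLC25A1 (0.76) or siACO1 (0.79).

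In the list of small GTPase regulators of the cytoskeleton 10 of 33 tested members were called higher and 5 lower, and 4 were common genes, all higher: ACTB, the cytoplasmic beta-actin, TPM4, a tropomyosin, ARHGAP31, which switches off CDC42 and RAC1, and CDC42 itself. The list median was 0.04 on average, with 0.10 in siSLC25A1, 0.07 in siACLY and -0.03 in siACO1. ARHGAP31 was at 1.4, 1.64 and 1.82 CPM in siControl, 6.98, 6.28 and 6.84 in siSLC25A1, 5.26, 5.24 and 5.78 in siACLY and 3.42, 3.12 and 2.41 in siACO1. It rose by 1.56 (SE 0.14, adjusted p 9.02e-10), with siACO1 nearest to the controls. CDC42 was counted at only 1.05 to 2.54 CPM, and 57.1% of its exon bases are shared with another gene on its strand, so its change of 0.71 (SE 0.19, adjusted p 0.00611) is uncertain. Outside the list, TGFB1I1, a focal adhesion adaptor, rose by 0.87 (SE 0.05, adjusted p 2.28e-14) and MICAL1, an enzyme that oxidises actin filaments, by 0.84 (SE 0.07, adjusted p 3.88e-10). TGFB1I1 was at 25.3, 25 and 25.5 CPM in siControl, 38.8, 42.6 and 40.9 in siSLC25A1, 50.6, 52.4 and 54.2 in siACLY and 47.2, 45.1 and 45.3 in siACO1, so that the lowest knockdown library, at 38.8 CPM, was above the highest control, at 25.5. TMEM154, a membrane protein, and DNAJB5, a cochaperone, complete the 14 higher genes, with average log2 fold changes of 1.04 and 0.69.

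Of the 14 lower genes with the largest weakest change, TMEM52 ranked first and is given with others below. FGFR3 (ENSG00000068078, chromosome 4, 1793293 to 1808872, plus strand), a receptor for fibroblast growth factors, was at 25.5, 24.9 and 26.8 CPM in siControl, 14, 15.3 and 15.8 in siSLC25A1, 14, 12.9 and 14.3 in siACLY and 15, 16.8 and 14.1 in siACO1. No knockdown library exceeded 16.8 CPM and no control was under 24.9, a separation that the rule requires. The average log2 fold change was -0.81 (SE 0.06, adjusted p 3.18e-11). No difference was detected between the knockdowns (adjusted p for equality 0.202, log2 fold changes from -0.90 to -0.75). FGFR4, of the same family, was at 13.5, 12.2 and 11.8 CPM in siControl, 6.87, 7 and 7.83 in siSLC25A1, 8.32, 9 and 7.9 in siACLY and 8.73, 7.51 and 8.48 in siACO1 and fell by an average of 0.66 (SE 0.08, adjusted p 1.39e-07). MATK, a kinase that inhibits SRC family kinases, was at 8.76, 7.66 and 9.08 CPM in siControl, 2.89, 4.27 and 3.56 in siSLC25A1, 4.52, 5.31 and 5.67 in siACLY and 3.62, 3.64 and 3.98 in siACO1. Its average log2 fold change was -1.05 (SE 0.10, adjusted p 6.53e-09), with siACLY nearest to the controls. EFNA1, a ligand of Eph receptors, changed by -0.82 (SE 0.10, adjusted p 1.4e-07), KREMEN2, a receptor for the Wnt inhibitor Dickkopf, by -0.85 (SE 0.12, adjusted p 1.79e-06), and DIRAS1, a RAS-like GTPase, by -0.82 (SE 0.04, adjusted p 1.65e-14).

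DIRAS1 (ENSG00000176490, chromosome 19, 2714567 to 2721418, minus strand) was at 64.3, 65.5 and 67.4 CPM in siControl, 40.5, 41.7 and 41.9 in siSLC25A1, 33.9, 35.2 and 38.2 in siACLY and 34.3, 33.7 and 37.8 in siACO1. The highest knockdown library, at 41.9 CPM, was below the lowest control, at 64.3. MUC1, a transmembrane mucin of pancreatic and other epithelial cancers, was at 18.9, 21.4 and 21.3 CPM in siControl, 12.1, 15.5 and 15.7 in siSLC25A1, 11.1, 10.5 and 9.45 in siACLY and 11.5, 11.5 and 13.1 in siACO1. It fell on average by 0.75 (SE 0.07, adjusted p 6.13e-09), and the siACLY libraries were the lowest. The remaining genes were TMEM52, CLCN2, a chloride channel, CXXC5, a CXXC zinc finger protein, TMEM38A, an intracellular cation channel, ARHGEF16, a guanine nucleotide exchange factor, SPNS2, a sphingosine-1-phosphate transporter, and BCL3. Their average log2 fold changes lay between -0.99 (TMEM52) and -0.57 (ARHGEF16); 24.7% of the exon bases of CLCN2 overlap a gene on the other strand, and its count is uncertain.

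BCL3, a nuclear IkappaB protein that binds NF-kappaB subunits, was at 12, 12.1 and 11.5 CPM in siControl, 8.2, 6.96 and 6.22 in siSLC25A1, 4.34, 4.42 and 5.55 in siACLY and 8.25, 6.63 and 7.35 in siACO1. It changed by -0.92 (SE 0.09, adjusted p 5.3e-09). In the list of NF-kappaB and inflammatory targets 7 of 18 tested members were called lower and 2 higher, with a median of -0.13, and 3 were common genes: BCL3 and BIRC3, an inhibitor of apoptosis, lower, and the chemokine CXCL1 higher. BIRC3 was at 31.5, 34.2 and 32.8 CPM in siControl, 29.2, 30.1 and 25.5 in siSLC25A1, 23.8, 24.4 and 24.6 in siACLY and 14.7, 13.7 and 13.3 in siACO1. All knockdown libraries were below the controls, but the siACO1 libraries stood far lower than the others, and the log2 fold changes were -0.22 in siSLC25A1, -0.44 in siACLY and -1.24 in siACO1. CXCL1 went the other way, with an average of 0.35 (SE 0.04, adjusted p 4.94e-07).

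Genes of lipid synthesis were listed in 2 branches. Of 22 tested genes of cholesterol synthesis and uptake 11 were called higher and 2 lower, and 3 were common genes, all higher, among them EBP, which acts late in the pathway, and HMGCS1, which acts early. Of 18 genes of fatty acid synthesis and desaturation 3 were called higher and 7 lower, and 5 were common genes, all lower (27.8%, against 4.15% of all tested genes): FASN, the fatty acid synthase, SCD and FADS3, desaturases, ME1, which makes NADPH, and SREBF1, which encodes the transcription factor SREBP-1. The medians were 0.15 and -0.08, and the second was -0.14 without siControl replicate 1 and -0.01 without siControl replicate 2. In siSLC25A1, siACLY and siACO1 the cholesterol median was 0.03, 0.31 and 0.14 and the fatty acid median -0.12, 0.04 and -0.08, so neither list moved alike in all 3 knockdowns. A difference between the branches was not tested.

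SREBF1 (ENSG00000072310, chromosome 17, 17810399 to 17837002, minus strand) was at 218, 243 and 239 CPM in siControl, 175, 198 and 188 in siSLC25A1, 126, 133 and 127 in siACLY and 145, 143 and 137 in siACO1. It fell by an average of 0.63 (SE 0.04, adjusted p 1.65e-13), and the siSLC25A1 libraries stood between the controls and the other knockdowns. SCD (ENSG00000099194, chromosome 10, 100347124 to 100364834, plus strand), which puts the first double bond into saturated fatty acids, was at 684, 803 and 760.2 CPM in siControl, 535, 644 and 616 in siSLC25A1, 462, 493 and 487 in siACLY and 571, 577 and 562 in siACO1. Its average change was -0.45 (SE 0.05, adjusted p 8.93e-07), and the highest knockdown library, at 644 CPM, was below the lowest control, at 684 CPM. For EBP, a sterol isomerase, the log2 fold changes were 0.21 in siSLC25A1, 0.26 in siACLY and 0.24 in siACO1, with no difference detected between them (adjusted p for equality 0.715; range of the 3 changes 0.05).

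In the list of citrate and TCA cycle genes, from which the 3 targets were left out, 10 of 25 tested members were called lower and 1 higher, with a median of -0.05, and 5 were common genes, all lower, among them CS, citrate synthase, MDH2, malate dehydrogenase, and DLAT and PDHA1, subunits of pyruvate dehydrogenase. CS was at 282, 269 and 270.5 CPM in siControl, 253, 236 and 237 in siSLC25A1, 243, 248 and 233 in siACLY and 226, 227 and 237 in siACO1. The lowest control was at 269 CPM and the highest knockdown library at 253, and the average log2 fold change was -0.20 (SE 0.03, adjusted p 1.89e-05), with -0.18 in siSLC25A1, -0.18 in siACLY and -0.25 in siACO1. With library totals in place of scaling factors 3 members were called higher, and likewise with the GC trend of each library removed.

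Of 45 tested cytosolic ribosomal protein genes 33 were called lower and 0 higher, with a median of -0.17, and 14 were common genes (31.1%). Of 34 genes of the respiratory chain 18 were called lower and 0 higher, with a median of -0.13, and 8 were common (23.5%), among them NDUFA8 and NDUFS8 of complex I. RPLP2, a protein of the ribosomal stalk, was at 673, 632 and 651 CPM in siControl, 561, 562 and 516 in siSLC25A1, 504, 493 and 563 in siACLY and 469.7, 489.9 and 590.1 in siACO1, and its average change was -0.31 (SE 0.06, adjusted p 0.002). The highest knockdown value was that of siACO1 replicate 3, the library that stood apart above. Without it 26 ribosomal protein genes and 17 respiratory chain genes were common, and with library totals, or with the GC trend removed, 4 respiratory chain genes were. On the log2(CPM + 1) scale the median level of the ribosomal list, less the control mean, was -0.02 in that library, against -0.29 and -0.28 in the other siACO1 libraries, -0.23 to -0.17 in siSLC25A1 and -0.18 to -0.07 in siACLY. For the respiratory chain it was 0.06 in that library, above all 3 controls (-0.01 to 0.01), against -0.20 and -0.16 in the other siACO1 libraries, so the list was not below the controls in all 9 knockdown libraries.

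**Figure D3:**
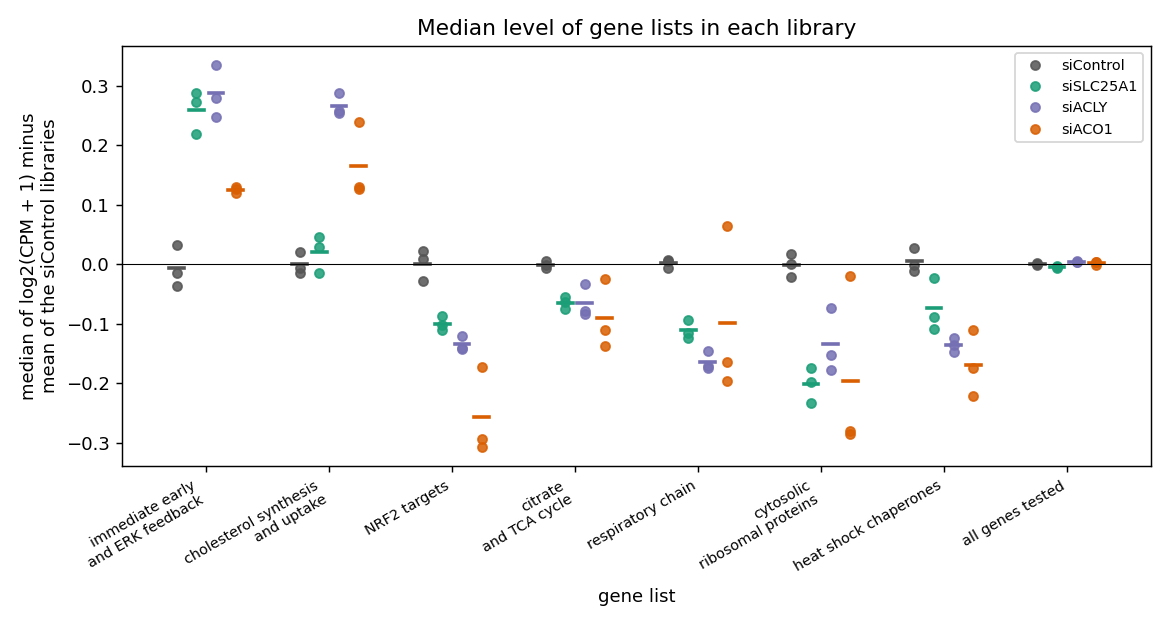
Median over the members of 7 gene lists, and over all genes tested, of log2(CPM + 1) minus the mean of the 3 siControl libraries; each point is 1 library and each bar the mean of 3. Immediate early genes lie above all controls in all 9 knockdown libraries, and siACO1 replicate 3 lies apart for ribosomal proteins (-0.02) and the respiratory chain (0.06).

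Targets of NRF2, the transcription factor of the antioxidant response, were called lower in 16 of 26 tested members and higher in 3, with a median of -0.14, and 6 were common genes, all lower: NQO1, a quinone reductase, TXN, thioredoxin, TKT, transketolase of the pentose phosphate pathway, ME1, and the ferritin chains FTH1 and FTL. Without siControl replicate 1 the called members that were lower numbered 10, and without siControl replicate 1 or 3 the called members that were higher numbered 1. TKT was at 474, 456 and 467 CPM in siControl, 404, 367 and 377 in siSLC25A1, 386, 378 and 377 in siACLY and 377, 371 and 403 in siACO1. The 3 knockdowns changed it almost equally (-0.28 in siSLC25A1, -0.29 in siACLY and -0.28 in siACO1; adjusted p for equality 0.963), with an average of -0.28 (SE 0.03, adjusted p 1.53e-07). NQO1 was at 604, 584 and 591 CPM in siControl, 526, 482 and 504 in siSLC25A1, 489, 453 and 482 in siACLY and 445, 442 and 495 in siACO1 and fell by 0.31 (SE 0.04, adjusted p 1.43e-07) on average. The ferritin counts are uncertain, since 27.1% and 33.3% of the 31-base stretches of FTH1 and FTL also occur in transcripts of genes elsewhere.

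Because the series title concerns ferroptosis, cell death by iron-dependent lipid peroxidation, its genes were listed on both sides. Of 22 tested genes of ferroptosis defence 7 were called higher and 10 lower (median -0.05), with 3 common genes higher, GCH1, AIFM2 and MBOAT2, and 4 lower, FTH1, GSR, PRDX6 and SCD. Of 19 genes that promote it 6 were called higher and 5 lower (median 0.01), with ACSL4 a common gene that was higher and LPCAT3 one that was lower. Without siControl replicate 3 the called genes of defence that were higher numbered 4. GCH1 (ENSG00000131979, chromosome 14, 54842008 to 54902852, minus strand), which starts synthesis of the antioxidant tetrahydrobiopterin, was at 3.77, 3.52 and 4.11 CPM in siControl, 5.51, 5.8 and 5.55 in siSLC25A1, 10.2, 9.58 and 9.45 in siACLY and 9.86, 10.9 and 8.86 in siACO1. It rose by 1.11 (SE 0.10, adjusted p 9.72e-10), less in siSLC25A1 (0.57) than in siACLY (1.37) or siACO1 (1.38).

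ACSL4, which loads polyunsaturated fatty acids onto coenzyme A for membrane lipids, was at 55.2, 56.3 and 56.1 CPM in siControl, 64.5, 68.6 and 63.8 in siSLC25A1, 98.8, 103 and 100.3 in siACLY and 66.8, 69.1 and 62.8 in siACO1. Its average change was 0.44 (SE 0.04, adjusted p 1.32e-09), largest in siACLY. LPCAT3, which places such fatty acids in phospholipids, was at 17.4, 19.6 and 18.1 CPM in siControl, 13.5, 13.2 and 11.7 in siSLC25A1, 11.1, 11.5 and 11 in siACLY and 14.8, 14.7 and 14 in siACO1. It fell by an average of 0.53 (SE 0.06, adjusted p 1.96e-07), but 65.6% of its exon bases overlap a gene on the other strand.

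Heat shock chaperones, a list that holds the mitochondrial HSPD1 and HSPE1 beside cytosolic members, were called lower in 11 of 17 tested members and higher in 0, with a median of -0.15 and 5 common genes, all lower: HSPA8, HSPH1, DNAJA1 and BAG3 of the cytosol and HSPD1, the chaperonin of the mitochondrial matrix. Without a filter on low counts 3 of these were common. DNAJA1, a cochaperone of HSP70, was at 223, 228 and 234 CPM in siControl, 189, 184 and 179 in siSLC25A1, 182, 179.8 and 184 in siACLY and 193, 202 and 214 in siACO1, an average log2 fold change of -0.27 (SE 0.03, adjusted p 3.37e-07). Of 23 tested genes of endoplasmic reticulum chaperones and the unfolded protein response 10 were called higher and 0 lower. None was a common gene, against 7.36% of all tested genes, which is few genes in a list of this size. The median of this list was 0.29 in siSLC25A1, 0.04 in siACLY and 0.02 in siACO1. Among targets of YAP and the TEAD factors 10 of 22 were called lower and 2 higher (median -0.15). The list median was 0.01 in siSLC25A1, -0.16 in siACLY and -0.28 in siACO1, so it was not lower in all 3 knockdowns. The 5 common members, all lower, were AMOTL2, AJUBA and ARHGEF17 with the factors TEAD2 and TEAD4 themselves. AMOTL2, an inhibitor of YAP that YAP induces, was at 187, 171 and 181 CPM in siControl, 156, 137 and 139.8 in siSLC25A1, 139.9, 140.0 and 139.8 in siACLY and 135, 133 and 124 in siACO1, a change of -0.38 (SE 0.04, adjusted p 7.64e-09).

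Interferon-stimulated genes and sensors of foreign RNA were examined because transfected RNA duplexes can induce them. Of 23 tested members 11 were called higher and 2 lower, with a median of 0.41 for the average change. By knockdown the median was 0.20 in siSLC25A1, 0.45 in siACLY and 0.18 in siACO1. The 4 common genes, all higher, were ISG15, a ubiquitin-like modifier, ISG20, an exonuclease, DHX58, a cytosolic RNA sensor, and PARP14. ISG15 was at 5.3, 5.33 and 4.65 CPM in siControl, 7.39, 8.85 and 9.2 in siSLC25A1, 6.14, 7.18 and 7.67 in siACLY and 7.85, 6.21 and 8.7 in siACO1. The average change was 0.58 (SE 0.11, adjusted p 0.000155), and the levels were low in all libraries. Of 18 genes of the RNA interference machinery 0 were called higher and 3 lower, against 12.3% and 15% of all tested genes. None was a common gene, against 7.36% of all tested genes, which is few genes in a list of this size. Of the lists with 0 members called higher by edgeR, DESeq2 also called 0 higher, and an unadjusted p under 0.05 was reached upward by 1 member each for ribosomal proteins and RNA interference and by 0 each for heat shock chaperones and the respiratory chain. In the list of endoplasmic reticulum chaperones and the unfolded protein response, DESeq2 called 0 lower and 1 reached an unadjusted p under 0.05 downward. Whether a difference in the response to the duplexes had a part in the other common changes was not tested.

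Matrix and adhesion genes were mixed, with 10 of 30 tested members called higher and 7 lower. LAMB3, a chain of laminin 332, rose by 1.87 (SE 0.20, adjusted p 2.61e-08). It was at 0.614, 1.03 and 0.643 CPM in siControl, 1.92, 2.41 and 2.82 in siSLC25A1, 2.56, 2.56 and 3.12 in siACLY and 3.9, 2.86 and 3.63 in siACO1. COL7A1, the anchoring fibril collagen, fell by an average of 0.63 (SE 0.08, adjusted p 6.46e-07). LAMA5, a laminin chain, and ITGB4, an integrin of hemidesmosomes, were also common and lower, and the collagen COL5A2 was common and higher.

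Among genes of vesicle coats and secretory traffic 7 of 34 were called higher and 1 lower, and 4 were common, all higher: the small GTPases ARF1 and ARF3, GBF1, which activates them, and SEC24D, a coat subunit of vesicles that leave the endoplasmic reticulum. SEC24D was at 26.9, 25.6 and 23.3 CPM in siControl, 32.8, 38.7 and 41.9 in siSLC25A1, 32.6, 32.1 and 31.2 in siACLY and 28.4, 33.9 and 29.7 in siACO1, an average change of 0.40 (SE 0.07, adjusted p 4.34e-05). Lysosome and autophagy genes were called higher in 9 of 32 and lower in 1, with BECN1, FNIP2 and WIPI1 common and higher. Those called higher numbered 14 with library totals and 5 without siControl replicate 1, and 28.1% of the exon bases of WIPI1 overlap a gene on the other strand. WIPI1, which binds phosphoinositides on forming autophagosomes, was at 12.6, 13.5 and 11.2 CPM in siControl, 15.7, 24.5 and 21.4 in siSLC25A1, 23.2, 26.1 and 28.7 in siACLY and 16.2, 14.4 and 15.6 in siACO1.

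Calls in the average contrast and common genes did not go in parallel in every list. Of 37 tested genes of DNA replication 20 were called lower and 2 higher, yet CCNE1, a cyclin of S phase entry, was the only common gene. The median of these genes was 0.10 in siSLC25A1, -0.26 in siACLY and -0.18 in siACO1. Of 26 genes of the integrated stress response 10 were called higher and 7 lower, and 2 were common, a share of 7.69% against 7.36% of all tested genes: SLC38A2, a glutamine and alanine transporter, higher, and PHGDH, the first enzyme of serine synthesis, lower. PHGDH was at 270.1, 269.8 and 272 CPM in siControl, 209, 259 and 257 in siSLC25A1, 245, 262 and 259.7 in siACLY and 128, 127 and 137 in siACO1. Its average of -0.43 was not called when siSLC25A1 and siACLY alone were averaged. None of 16 tested replication-dependent histone genes was common, against 7.36% of all tested genes, which is few genes in a list of this size. The medians of the histone genes were -0.47 in siSLC25A1, -0.04 in siACLY and 1.07 in siACO1. Their counts are from libraries of polyadenylated RNA and may not give the full level of these transcripts.

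Smaller numbers of common genes came from the remaining lists, in several of them near the 7.36% of all tested genes. The share was 9.09% for iron handling, 8.70% for mitochondrial carriers, 7.41% for histone acetylation and 7.14% for G1 control. It was lower for p53 targets (4.35%) and mitosis (3.33%). Higher shares were those of epithelial and mesenchymal state (14.3%), glycolysis and hypoxia (13.3%), apoptosis (12%) and tRNA synthetases (11.1%). Of 22 genes of iron handling 2 were called higher and 5 lower, and the common ones were the ferritin chains. In glycolysis and hypoxia GPI and ENO1 were lower, and ENO2 and the glucose transporter SLC2A1 higher, of 30 tested. Of 25 regulators of apoptosis CASP8 and CFLAR were higher beside the lower BIRC3, and of 23 p53 targets the death receptor TNFRSF10B was higher, by 0.31 (SE 0.04, adjusted p 1.43e-07). In histone acetylation the deacetylase SIRT6 and the acetyl-lysine reader BRD3 were lower, of 27 tested, of which 10 were called lower and 1 higher. The carriers SLC25A3 and SLC25A39, of 23 mitochondrial carriers, the tRNA synthetases QARS1 and WARS1, of 18, and ID1 and SNAI1, of 21 epithelial and mesenchymal state genes, were lower, while TGFB1 in the last list was higher. KIF2C, of 30 mitosis genes, was higher by 0.12 (SE 0.04, adjusted p 0.0222), and CDK2, of 14 genes of G1 control, was lower.

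**Figure D4:**
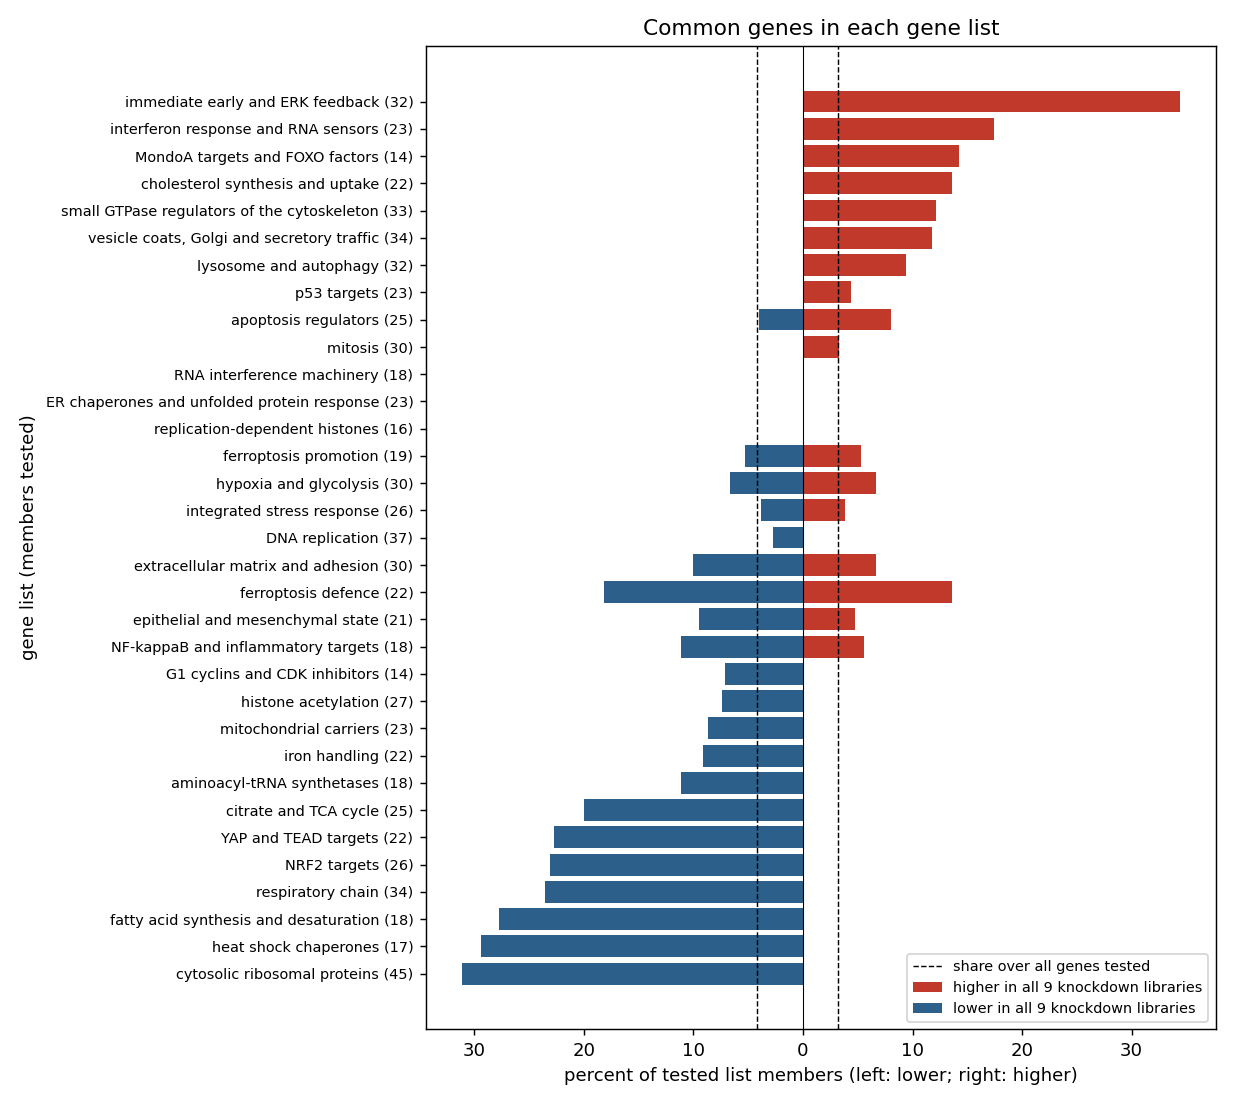
Percent of tested members of each gene list that were common genes, with higher genes to the right and lower genes to the left; the number of members tested is in brackets. Dashed lines mark the shares over all tested genes, 3.21% higher and 4.15% lower, and the bars for immediate early genes (34.4%, right) and ribosomal proteins (31.1%, left) are the longest. The shares are not matched for the level of the genes.

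The lists together held 787 of the 16197 tested genes and 114 of the 1192 common genes (9.56%). Most of the common genes lay outside the lists, as did most of the tested genes. Common genes of the 2 directions differed in features of their transcripts. The median GC content of the longest transcript, from GENCODE release 29 on GRCh38, was 47.2% for the higher genes, 54.2% for the lower genes and 48.7% for all tested. Median exon lengths were 5099, 4910 and 4276 bases, and 91.2%, 95.1% and 77.7% of the genes with an entry were protein-coding. Common genes also had higher levels than tested genes as a whole. The median level in siControl was 28.996 CPM for the higher genes, 54.889 for the lower genes and 13.594 for all tested. At least 5 CPM was reached by 1058 of the 1192 common genes and by 10068 of the 16197 tested. The shares of common genes in the lists were not matched for level. Whether level had a part in them was not tested. On chromosome 19, 7.98% of the 1165 tested genes were common and lower and 1.63% common and higher. Over the same 9778 genes, the rank correlation of each library's deviation with GC content ran from -0.310 to 0.182 in the controls and from -0.222 to -0.013 in the knockdowns. With the GC trend of each library removed, an alternative added after the data were seen, the common genes numbered 617 higher and 572 lower, and 1007 of the 1192 were retained; with library totals they numbered 688 and 517 (57.1% higher, against 43.6%).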

How the data were processed

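RNA sequencing of polyadenylated RNA from 12 MiaPaCa-2 libraries was used. The deposited file gives counts per gene identifier, as whole numbers per the file headers and values. The submitters' processing notes list CASAVA, FastQC, Trim Galore, STAR 2.7.0e and DESeq2, with GRCh38 and GRCm39 as builds and no roles. The counting tool, annotation and use of strand are not given in the sources used here, so overlapping and near-identical genes are uncertain. Symbols were found for 62700 of 70116 identifiers (89.4%), and identifiers without one held 0.119% to 0.148% of counts. Groups came from the labels.

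Genes were filtered with filterByExpr at its defaults and scaled by TMM, and edgeR 4.0.16 (R 4.3.3) was fitted to all 12 libraries and 4 groups with robust quasi-likelihood, leaving 8 residual degrees of freedom. All p-values were adjusted over the 16197 genes tested. The common biological coefficient of variation was 4.89%. The method was tested on simulated data. Named genes were the 14 in each direction with the largest weakest change of the 3 knockdowns and at least 5 CPM, up to 2 per list by the same measure, the 3 with the widest and the 3 with the narrowest range in each direction, the targets, and 1 gene on each side of the edge of the rule. All other names, including the further common members of lists, were chosen after their values were seen. The members and lists were chosen with earlier results of these data known. Alternatives were other scalings, filters, DESeq2 1.42.0, a replicate block, other averages and each library left out. Gene positions and transcript features are from GENCODE release 29, and promoters from RefSeq. Some results on single genes are not reported here.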

Additional observations from a re-analysis of the deposited data

Results flagged for a closer look

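Among the named common genes, 10 differed between the 3 knockdowns in size while sharing a direction: equality of the groups was rejected by edgeR's quasi-likelihood test and the log2 fold changes spanned at least 1. FOSB (adjusted p 8.42e-09) and FOS (adjusted p 1.39e-06), subunits of AP-1, spanned 2.24 and 1.96, with siSLC25A1 lowest and siACO1 highest. CAMK1G, a calmodulin-dependent kinase, also changed least in siSLC25A1 (adjusted p 3.37e-12, range 1.44).

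The siACLY libraries were highest for NGFR, the p75 neurotrophin receptor (adjusted p 3.01e-14, range 1.29), for TSC22D3, the leucine zipper protein (adjusted p 9.69e-12, range 1.81), and for ISG20, an exonuclease (adjusted p 6.32e-05), with log2 fold changes for ISG20 of 0.48 in siSLC25A1, 1.51 in siACLY and 0.91 in siACO1. ARHGAP31, which inactivates CDC42 and RAC1, was highest in siSLC25A1 (adjusted p 2.59e-07, range 1.18).

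The 3 lower genes were lowest in siACO1. BIRC3, an inhibitor of apoptosis, differed between knockdowns (adjusted p 3.7e-12, range 1.03). HIBADH, a mitochondrial enzyme of valine breakdown, had log2 fold changes of -0.12 in siSLC25A1, -0.43 in siACLY and -1.12 in siACO1 (adjusted p 9.94e-15). CABLES1, which binds cyclin-dependent kinases, had -0.33 in siSLC25A1, -0.14 in siACLY and -1.32 in siACO1 (adjusted p 7e-07).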

How the results depend on the processing

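None of the named genes changed direction under the alternatives run. Their values kept the call in 1942 cases and lost it in 59, most of them with the 9 knockdown libraries as 1 group. The counts of common genes, 520 higher and 672 lower, were within 1.5 times under both other scalings, both other filters, DESeq2, the GC trend removed and each library left out. With the 9 knockdown libraries as 1 group 137 genes were called higher and 145 lower, of which 136 and 144 were common. With 2 knockdowns averaged, and so 6 libraries to lie on 1 side, the common genes numbered 1268 higher and 1322 lower for siSLC25A1 with siACLY, 779 and 947 for siSLC25A1 with siACO1, and 1458 and 1615 for siACLY with siACO1. With an absolute average log2 fold change of at least 0.5, 480 genes were called higher and 287 lower, and 144 and 124 were common. Leaving out 1 library gave 1418 to 2293 genes called higher, 1786 to 2930 called lower, 534 to 649 common higher and 702 to 862 common lower, with both highest called counts without siACO1 replicate 3. With library totals, 2594 genes were called higher and 1853 lower (58.3% higher, against 45.2%), and with the GC trend removed 52.6% were higher. For pairs of libraries from different groups, the deviations of each library from the mean of its own group were correlated across genes. These correlations ran from -0.0538 to 0.108 for same-numbered libraries and from -0.103 to 0.119 for other pairs. On average, 8 of 12 libraries correlated best with their own number. Whether replicate numbers pair the libraries was not tested. With the replicate block 2028 genes were called higher and 2477 lower, and 519 and 671 were common. When single control libraries were left out, NDUFA10, ACSF3, CAPN10, SLC25A3, PRTFDC1 and KIF2C each lost their call at least once, and KIF2C did so without siACLY replicate 1 as well. Changes of low genes are the least precise at this depth.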

Other observations

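Families seen among the named genes were listed in full after their values were known. Their counts are descriptions and include the genes that led to the lists. Over all tested genes 12.3% were called higher and 15% lower, and 3.21% were common and higher and 4.15% common and lower. Of 30 tested receptor tyrosine kinases 3 were called higher and 11 lower by edgeR (median log2 fold change -0.04), and the common genes were EPHA7, higher, and FGFR3, FGFR4, ERBB3, MET, TYRO3 and EPHA8, lower. ERBB3, a receptor of the EGFR family, was at 3.94, 5.3 and 4.82 CPM in siControl, 2.48, 3.06 and 3.56 in siSLC25A1, 2.79, 2.87 and 2.62 in siACLY and 3.06, 3.67 and 2.83 in siACO1. Its average change was -0.65 (SE 0.13, adjusted p 0.000227), and no knockdown library reached the lowest control, as the rule requires. Of 5 tested EGFR ligands 3 were called higher and 1 lower (median 0.25), and AREG, EREG and HBEGF were common and higher. AREG, amphiregulin, was at 29.4, 31.2 and 29.1 CPM in siControl, 34.9, 37.3 and 36.7 in siSLC25A1, 50.1, 50.1 and 51.9 in siACLY and 35, 32.9 and 35.4 in siACO1, a change of 0.41 (SE 0.05, adjusted p 6.56e-08), largest in siACLY.

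Among 8 tested ephrins, ligands of Eph receptors, 2 were called higher and 4 lower (median -0.27), with EFNA1, EFNA3 and EFNA4 common and lower. Of 23 tested Wnt pathway genes 0 were called higher and 14 lower (median -0.22), with AXIN2, FZD5, FZD8, KREMEN2, LRP5 and TCF7 common and lower. The list mixed receptors and nuclear factors with other members, such as AXIN1, AXIN2, APC, GSK3B, DVL1 and ZNRF3. It held both activators and inhibitors of the pathway. TCF7, a factor that binds beta-catenin, was at 215, 221 and 217 CPM in siControl, 211, 182 and 191 in siSLC25A1, 138, 123 and 122 in siACLY and 126, 128 and 137 in siACO1. Its average change was -0.56 (SE 0.04, adjusted p 1.06e-10), and siSLC25A1 lay nearest to the controls. Of 19 tested RAS and RAC proteins 6 were called higher and 4 lower (median 0.03), with NRAS, RAC2, RAP2B, RAP2C and CDC42 common and higher. NRAS was at 141, 143 and 143 CPM in siControl, 168, 173 and 176 in siSLC25A1, 155, 159 and 156 in siACLY and 177, 182 and 179 in siACO1, a change of 0.25 (SE 0.03, adjusted p 5.96e-07).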
